A study of Mus musculus with 12 samples.

Results

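The subject is a run of neighbouring zinc finger genes and pseudogenes near the distal end of mouse chromosome 2, described in RNA-seq libraries from embryos with defects of neural tube closure. Its members are the gene rows of the deposited table that lie wholly between 175.0 and 177.5 megabases on mm10 and hold at least 10 reads summed over the 12 libraries. The table has 72 rows in this stretch among its 53342 genes, of which 49 passed the read minimum and 23 fell under it. Tests covered genes with at least 1 TPM (a level corrected for transcript length and library size) in at least 3 libraries, which kept 17848 genes, 36 of them members. The stretch was chosen by the counts of its genes, which were higher in all 3 mutants than in wild type, so the values against wild type below are a description and carry no test.

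The libraries came from the caudal region of embryos at stage E10.5, with 3 libraries per genotype, and each library was made from a pool of 4 to 7 embryos. The first genotype was a conditional knockout (cKO) of beta-catenin, the product of Ctnnb1, a junction protein and the nuclear effector of WNT signalling. The second was a conditional knockout of Emg1, which encodes a methyltransferase needed to build the small ribosomal subunit. The third was homozygous for the loop-tail allele of the planar cell polarity gene Vangl2 (Vangl2 Lp/Lp), and the fourth was wild type. The sources used here do not give the Cre driver or deleted exons of the conditional lines, the strain of the mice or the relation of the wild-type embryos to each mutant line. The 3 mutants share the same 3 wild-type libraries, and p-values measure the spread between pooled libraries.

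Most genes of this stretch are predicted to encode proteins with a KRAB domain followed by a row of C2H2 zinc fingers, the largest family of transcription factors in mammals. In the general picture of these proteins the fingers bind DNA and the KRAB domain recruits the co-repressor Trim28, which brings the histone methyltransferase Setdb1, and many targets are transposable elements. Such genes sit in tandem clusters, multiply by local duplication, and differ in number between mouse strains and between species. The functions of the individual members named below are not established, and each is described by its sequence class.

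By gene type, 34 members are protein coding, 8 are unprocessed pseudogenes, 5 are processed pseudogenes, 1 is a pseudogene of another class and 1 is a lincRNA. They lie on both strands, 25 on the plus and 24 on the minus strand. All 49 have the same coordinates in GENCODE vM21, whose transcripts were used for the sequence comparisons. Of the 34 coding members, 31 hold at least 1 codon pattern of a C2H2 finger (2 residues between the cysteines, 12 between the pairs and 3 between the histidines). The median was 12 patterns, and the longest row, of 25, was in Gm14295. The products of Gm14440, Gm14288 and Gm14435 held 0 patterns, and those of 2210418O10Rik and Gm14296 held 1.

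The members are close copies of each other. A total of 13 members had no 50-base window of their own, meaning that each such window of their transcripts also occurs in another gene. In 24 members under 10% of windows were their own, and in 8 members over 50% were. Average linkage on shared windows, cut at 50%, gave 9 families of 2 or more members. The largest is a family of 9 coding genes, called the Gm4631 family below: Gm4631, Gm4724, Gm11007, Gm2007, Gm2026, Gm14434, Gm14308, Gm14305 and Gm14410. Others are Zfp968 with Zfp969, Zfp966 and Zfp967, Gm14440 with Gm14288 and Gm14435, Gm2004 with Gm14295 and Gm14419, Zfp965 with Zfp973, 2210418O10Rik with Gm14296, and Gm14391 with Gm6710. A family of 6 around Gm14387 holds 5 unprocessed pseudogenes and the lincRNA Gm11008. Gm14438 and Gm14414 are processed pseudogenes, and nearly all of their windows also occur in genes outside the cluster. How a read that fits several copies was divided was decided by the authors' counting, so values of single copies are uncertain and sums over a family are given beside them.

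The copies also share their promoters, which are shown because members far above wild type, such as 2210418O10Rik, Gm14305 and Zfp968, and Zfp970, whose genotypes overlapped, have nearly the same sequence upstream of their start. RefSeq (GRCm38.p6) lists a promoter, from 250 bases before to 50 bases after the start, for 23 members, and 21 of them hold an identical run of 54 bases. The windows below are 114 bases long, end with that run and are written 5′ to 3′ on the gene's strand, with the CCAAT motif at the end in capitals.
2210418O10Rik (chr2:176226406-176226519, plus strand, ending 45 bases before the start): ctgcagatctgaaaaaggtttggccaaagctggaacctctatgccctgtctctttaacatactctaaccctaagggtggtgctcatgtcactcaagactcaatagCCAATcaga
Gm14305 (chr2:176708144-176708257, plus strand, 95 bases before): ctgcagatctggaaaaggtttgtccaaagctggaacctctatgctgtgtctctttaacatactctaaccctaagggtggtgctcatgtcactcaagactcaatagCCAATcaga
Gm14410 (chr2:177206507-177206620, minus strand, 10 bases before): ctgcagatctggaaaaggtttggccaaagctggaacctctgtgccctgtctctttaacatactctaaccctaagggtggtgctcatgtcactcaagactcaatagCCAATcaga
Zfp968 (chr2:175372293-175372406, plus strand, 29 bases before): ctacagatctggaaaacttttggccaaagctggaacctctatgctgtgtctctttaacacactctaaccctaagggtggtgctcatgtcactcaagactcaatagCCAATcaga
Zfp970 (chr2:177464568-177464681, plus strand, 60 bases before): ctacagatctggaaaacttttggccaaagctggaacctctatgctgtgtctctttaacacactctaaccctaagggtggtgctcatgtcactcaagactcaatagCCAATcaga

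The window of Zfp968 is identical to that of Zfp970 (0 differences), as are those of Zfp965, Zfp966, Zfp967, Zfp973, Gm14295, Gm14440 and Gm14288. The window of Gm14410 is identical to those of 8 others: Gm14391, Gm4631, Gm4724, Gm2007, Gm6710, Gm2026, Gm14434 and Gm14308. The window of 2210418O10Rik differs at 2 positions from that of Gm14410 and at 7 from that of Zfp970, and the window of Gm14305 differs at 5 positions from that of Zfp970. The motif CCAAT, searched on both strands, occurs in 27 of 28 promoter entries of members (96.4%), against 37.4% of all 32851 entries. It is part of the 54-base run that the copies share. The entries of members are therefore not independent, and these shares are no test of the motif. The 54-base run also occurs upstream of 5 genes that are no members, Gm14403, Gm14322, Gm14325, Gm14326 and Zfp971. Gm14403 starts just inside the upper edge of the region and ends outside it, and the other 4 lie beyond that edge. Gm14393 and Gm14444 lack the run in the entries listed.

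Libraries held 32863562 to 46464596 assigned reads. The targeted gene was lower in its own mutant only for Emg1, at 48.0, 46.5 and 43.4 TPM in Emg1 cKO against 70.3, 70.9 and 80.5 TPM in wild type (log2 fold change -0.81, adjusted p 9.5e-06, edgeR). Ctnnb1 was not called in beta-catenin cKO (log2 fold change -0.09, adjusted p 0.2) and Vangl2 was not called in Vangl2 Lp/Lp (0.17, adjusted p 0.074). None of the 3 lies on chromosome 2: Ctnnb1 is on chromosome 9, Emg1 on chromosome 6 and Vangl2 on chromosome 1. Vangl2 Lp/Lp replicate 1 stood apart from its group in endoderm markers (summed values of 20 to 137 CPM over the 3 libraries, against 17.3 to 20.1 in wild type) and in caudal markers (258 to 440, against 397 to 425 in wild type).

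The cluster as a whole was higher in every mutant library than in every wild-type library. Its 49 members together had 114, 150 and 99.4 TMM-scaled CPM (reads relative to the size of the library, corrected for its composition by TMM) in beta-catenin cKO and 146, 136 and 144 in Emg1 cKO. They had 99.6, 121 and 113 in Vangl2 Lp/Lp, against 49.2, 42.7 and 37.7 in wild type. The ratio of means to wild type was 2.81 in beta-catenin cKO, 3.29 in Emg1 cKO libraries and 2.58 in Vangl2 Lp/Lp. In bulk RNA, more cells of a type that expresses these genes and more RNA per cell cannot be told apart.

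Taken gene by gene, 29 of the 36 tested members lay above all wild-type libraries in TPM in beta-catenin cKO, beside 28.7% of all genes tested. The count was 27 of 36 in Emg1 cKO, beside 28.9%, and 27 of 36 in Vangl2 Lp/Lp, beside 22.1%. In all 3 mutants at once 27 of 36 members lay above, beside 12.5% of all genes. TPM of all genes were shifted upward in the mutants, by a median of 0.10, 0.11 and 0.08 on the log2 scale. In TMM-scaled CPM the shares over all genes were 17.4%, 17.7% and 14.5%, while the members' counts were the same 29, 27 and 27. The median log2 fold change of tested members was 1.66 in beta-catenin cKO, 2.38 in Emg1 cKO libraries and 1.86 in Vangl2 Lp/Lp, and that of all genes was 0.00 in each. Since these contrasts chose the region, these counts support nothing further. By class, 25 of 29 tested coding members and 2 of 7 tested pseudogenes lay above wild type in all 3 mutants. By strand, 15 of 19 on the plus strand and 12 of 17 on the minus strand did.

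**Figure D1:**
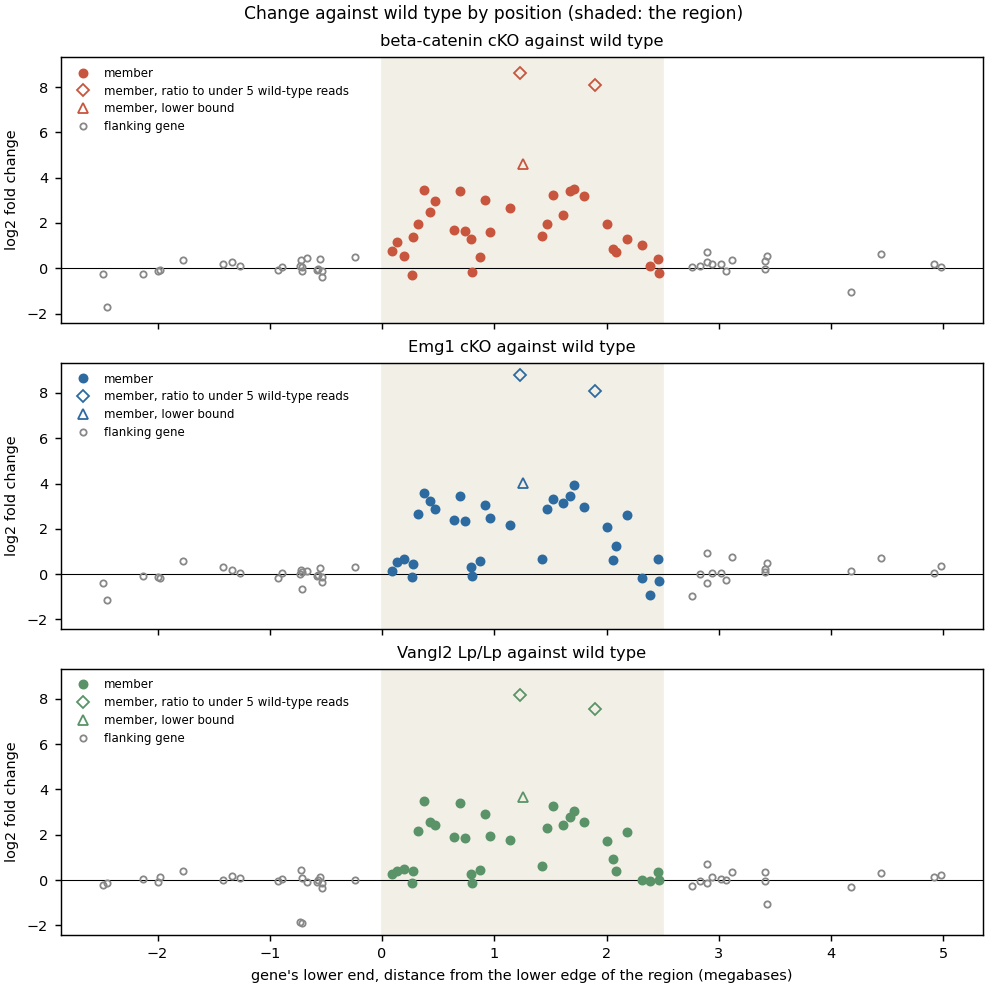
Log2 fold change against wild type (y axis) of tested members (filled points) and of flanking genes (open grey points) by distance in megabases from the lower edge of the region (x axis), 1 panel per mutant; diamonds are ratios of reads for the pair of members with under 5 wild-type reads and the triangle is the lower bound for the member with none. High values fill the middle of the region in all 3 mutants, and the medians of the flanking genes are 0.08, 0.03 and -0.00.

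Along the chromosome the differences were highest in the middle. The cut points used here, Gm4631 and Gm14410, lay above wild type themselves and were not fixed beforehand. The counts per block are therefore a description only. Of the 5 tested members before Gm4631, 3 lay above wild type in all 3 mutants, with medians of 0.77, 0.46 and 0.40 on the log2 scale in beta-catenin cKO, in Emg1 cKO and in Vangl2 Lp/Lp. Of the 27 from Gm4631 (175321955 to 175338197) to Gm14410 (177183453 to 177206421), 24 did, with medians of 2.35, 2.88 and 2.28. Of the 4 after Gm14410, 0 did, with medians of 0.25, -0.23 and 0.01. The stretch of high values is not unbroken: Gm14288 and Gm14407, for example, lie inside it and did not lie above wild type in all 3 mutants.

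The members with the highest folds had almost no reads in wild type. The coding gene 2210418O10Rik (ENSMUSG00000078894, 176226569 to 176240328) had 5.52, 7.62 and 4.55 TPM in beta-catenin cKO and 7.53, 6.02 and 6.48 TPM in Emg1 cKO. It had 3.07, 4.89 and 4.65 TPM in Vangl2 Lp/Lp, against 0.00912, 0.00857 and 0.0265 TPM in wild type. Its wild-type values stand for 2 reads in all, and its mutant values for 696 reads in beta-catenin cKO, 879 in Emg1 cKO libraries and 533 in Vangl2 Lp/Lp. Corrected for library size, the ratio to wild type was 388 in beta-catenin cKO (95% interval 107 to 3210), 442 in Emg1 cKO (122 to 3650) and 286 in Vangl2 Lp/Lp (78.7 to 2370). These intervals cover counting error only, on rounded reads summed over the 3 libraries of each genotype. They leave out the spread between libraries and the division of reads among copies. Since these contrasts chose the region, the intervals are no test.

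Gm14296 (ENSMUSG00000074527, 176892509 to 176927809), whose transcripts contain every window of 2210418O10Rik, followed the same course. It had 3.10, 4.24 and 2.56 TPM in beta-catenin cKO, 3.57, 2.85 and 3.4 in Emg1 cKO libraries and 1.64, 2.67 and 2.38 in Vangl2 Lp/Lp, against 0.00821, 0.00998 and 0.0123 in wild type. With 4 wild-type reads in all, the ratios were 273 in beta-catenin cKO, 271 in Emg1 cKO libraries and 190 in Vangl2 Lp/Lp. Because 43.9% of the windows of Gm14296 occur in no other gene, its reads are less open to division among copies than those of 2210418O10Rik, which has 0.0%. The pseudogene Gm17258, 96.0% of whose windows occur in Gm14296, had 20.6, 28.8 and 16.5 reads in beta-catenin cKO, 16.5, 8.5 and 23.2 in Emg1 cKO libraries and 3.5, 19.1 and 12 in Vangl2 Lp/Lp, against 0 in each wild-type library. With a floor of 3 reads over the wild-type group, it was at least 24.5-fold, 16.1-fold and 12.5-fold higher in the 3 mutants in that order.

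The 4 genes around Zfp968 stood near 10-fold over wild type in each mutant. Zfp968 (ENSMUSG00000078898, 175372436 to 175384201) had 2.7, 3.36 and 1.78 TPM in beta-catenin cKO, 2.90, 2.71 and 2.91 in Emg1 cKO libraries and 2.81, 2.64 and 2.55 in Vangl2 Lp/Lp, against 0.327, 0.183 and 0.184 in wild type. The groups did not overlap, and the ranges of the 3 mutants overlapped. Summed over the family, the ratio of means to wild type was 9.41 in beta-catenin cKO, 9.78 in Emg1 cKO libraries and 9.31 in Vangl2 Lp/Lp. Its single genes had log2 fold changes of 3.02 to 3.45 in beta-catenin cKO, 3.04 to 3.57 in Emg1 cKO libraries and 2.91 to 3.51 in Vangl2 Lp/Lp. Each gene of this family holds 11 finger patterns.

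Zfp973 and Zfp965, which hold 6 patterns, came next. Zfp973 had 3.78, 6.46 and 4.24 TPM in beta-catenin cKO, 5.25, 4.82 and 5.18 in Emg1 cKO libraries and 2.28, 3.82 and 3.25 in Vangl2 Lp/Lp, against 0.672, 0.387 and 0.235 in wild type. The sum of the pair was 9.11-fold, 9.08-fold and 6.05-fold the wild-type mean in the 3 mutants. Zfp973 overlaps Gm14305 on the same strand, so reads from the shared stretch may be counted for either. The family of Gm2004, Gm14295 and Gm14419 was 6.67-fold, 5.93-fold and 4.52-fold the wild-type mean. Within it Gm14295 had 5.08, 6.53 and 3.5 TPM in beta-catenin cKO, 4.55, 4.06 and 4.36 in Emg1 cKO libraries and 3.14, 3.93 and 2.65 in Vangl2 Lp/Lp, against 0.662, 0.487 and 0.395 in wild type.

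**Figure D2:**
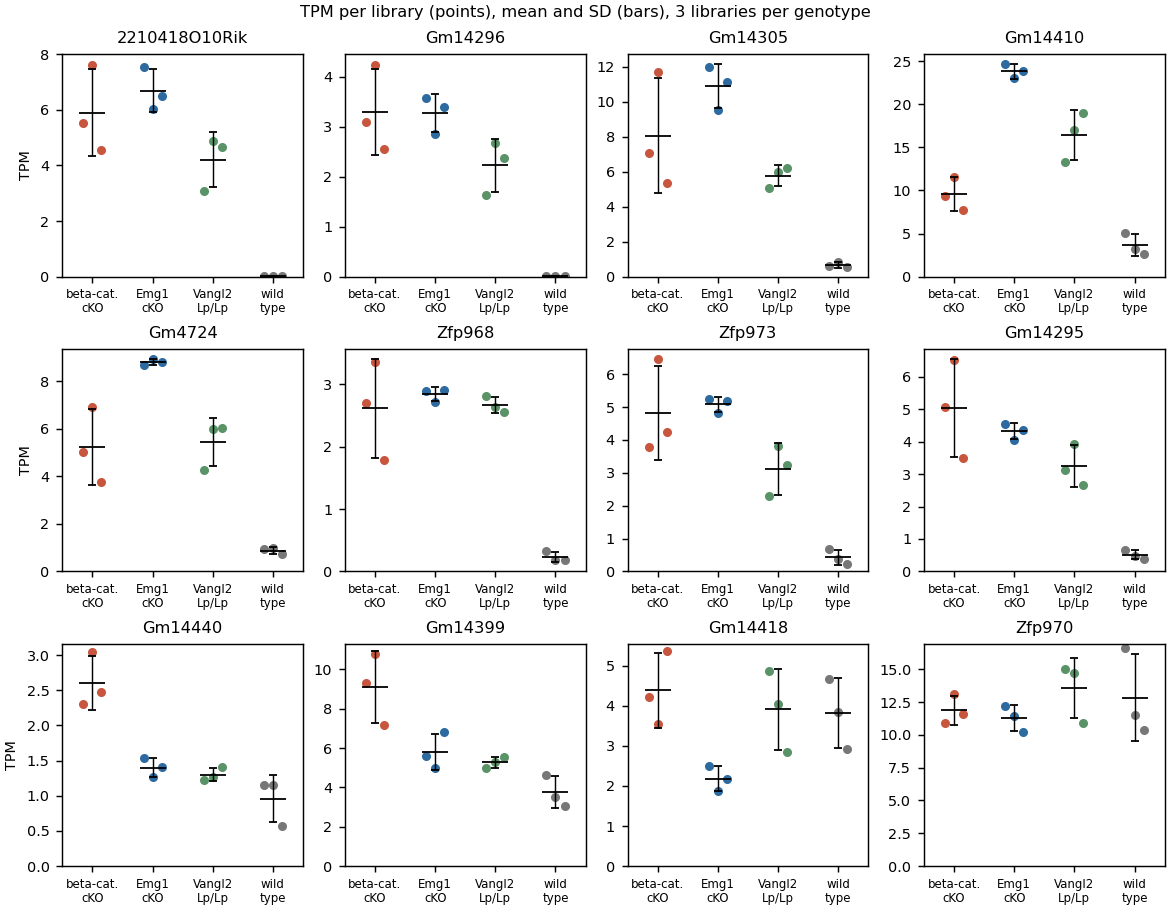
TPM (y axis) in each library (points) of 12 members, with the mean and SD over 3 libraries as bars, for the beta-catenin, Emg1 and Vangl2 mutants and wild type from left to right. 2210418O10Rik and Gm14296 are near 0 in wild type, Gm14410 reaches 24.7 TPM in Emg1 cKO, Gm14440 and Gm14399 are highest in beta-catenin cKO, and the genotypes overlap for Zfp970.

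The Gm4631 family carried the largest share of the cluster's reads among the families in the mutants. It summed to 31.4, 46 and 26.3 CPM in beta-catenin cKO, 63.6, 59.9 and 64.4 in Emg1 cKO libraries and 33.6, 44.2 and 46.4 in Vangl2 Lp/Lp, against 9.66, 9.24 and 7.62 in wild type. The ratios to wild type were 3.91, 7.09 and 4.68. Emg1 cKO was above both other mutants in every library, and those 2 overlapped. The family made up 28.2 ± 2.21% of the cluster's reads in beta-catenin cKO, 44.1 ± 0.523% in Emg1 cKO libraries and 37.1 ± 3.68% in Vangl2 Lp/Lp, against 20.5 ± 1.04% in wild type (SD, n = 3 each).

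Gm14410 (ENSMUSG00000078870) was the most abundant member by its mean over the libraries. It had 9.35, 11.6 and 7.70 TPM in beta-catenin cKO, 24.7, 23 and 23.8 in Emg1 cKO libraries and 13.3, 17 and 19 in Vangl2 Lp/Lp, against 5.08, 3.24 and 2.67 in wild type. The 4 genotypes did not overlap, in the order Emg1 cKO, Vangl2 Lp/Lp, beta-catenin cKO and wild type. Gm14305 (ENSMUSG00000078878, 176708328 to 176721813) had the highest fold of the family, with 7.09, 11.7 and 5.35 TPM in beta-catenin cKO, 12, 9.52 and 11.1 in Emg1 cKO libraries and 5.08, 5.96 and 6.23 in Vangl2 Lp/Lp, against 0.595, 0.837 and 0.545 in wild type. Its log2 fold changes were 3.49, 3.92 and 3.03. Gm4724 averaged 5.22 ± 1.60 TPM in beta-catenin cKO, 8.81 ± 0.140 in Emg1 cKO libraries and 5.43 ± 1.01 in Vangl2 Lp/Lp, against 0.872 ± 0.138 in wild type (SD, n = 3 each). Gm14434 averaged 4.34 ± 1.24, 8.31 ± 0.578 and 5.34 ± 1.05 TPM in the same mutants, against 1.04 ± 0.177 in wild type. Gm4631 itself, 56.9% of whose windows are its own, had log2 fold changes of 1.95, 2.66 and 2.15.

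**Figure D3:**
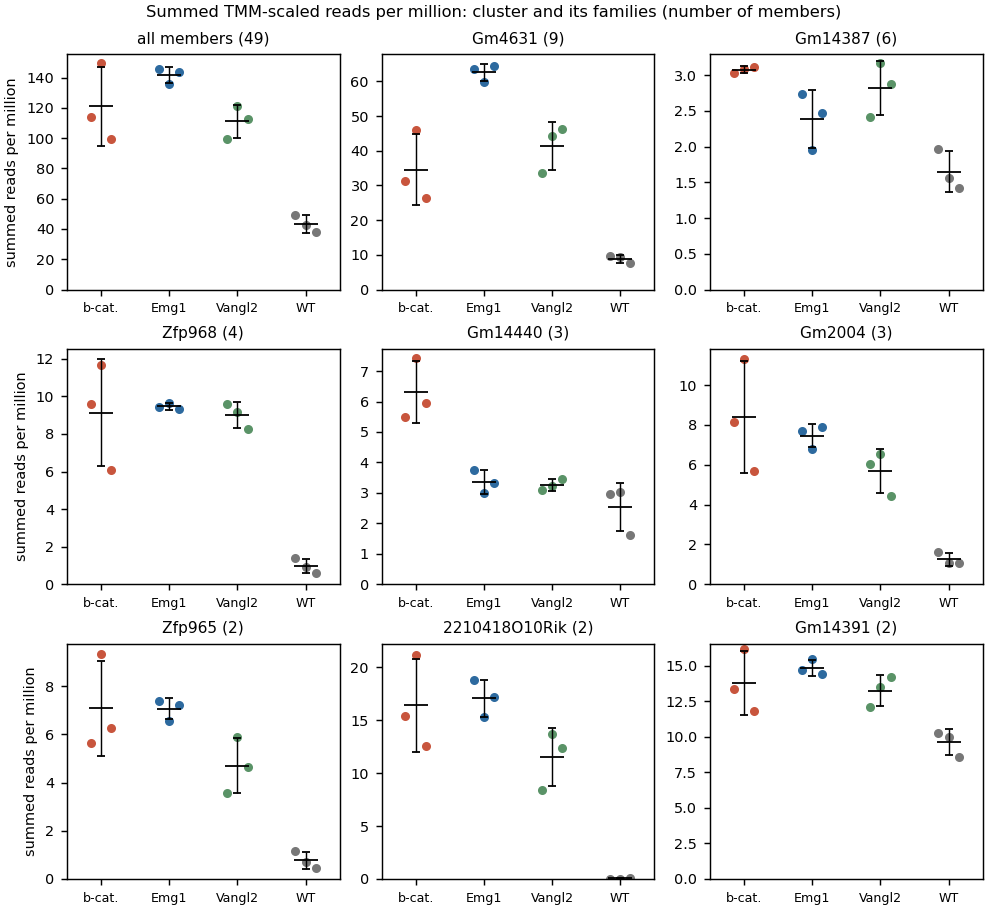
Summed TMM-scaled CPM (y axis) of all 49 members and of 8 of the families, by library (points), with the mean and SD over 3 libraries, for the beta-catenin, Emg1 and Vangl2 mutants and wild type from left to right. The Gm4631 family is highest in Emg1 cKO (59.9 to 64.4) and the Gm14440 family in beta-catenin cKO (5.5 to 7.44).

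A further group stood out in beta-catenin cKO. The family of Gm14440, Gm14288 and Gm14435 summed to 5.5, 7.44 and 5.96 CPM in beta-catenin cKO, 3.76, 3.0 and 3.32 in Emg1 cKO libraries and 3.10, 3.22 and 3.46 in Vangl2 Lp/Lp, against 2.95, 3.02 and 1.63 in wild type. It was 2.49-fold the wild-type mean in beta-catenin cKO, 1.33-fold in Emg1 cKO libraries and 1.29-fold in Vangl2 Lp/Lp. Gm14399, which holds 18 finger patterns and stands alone by sequence, had 9.31, 10.8 and 7.18 TPM in beta-catenin cKO, 5.58, 5.0 and 6.81 in Emg1 cKO libraries and 5.01, 5.27 and 5.56 in Vangl2 Lp/Lp, against 4.65, 3.53 and 3.07 in wild type. In both cases all 3 beta-catenin cKO libraries lay above every other library. Gm14443 had too few reads to be tested but has 86.3% of its windows to itself. It had 29.5, 43.9 and 38.1 reads in beta-catenin cKO, 27.5, 13.5 and 22 in Emg1 cKO libraries and 2.1, 20.3 and 5.9 in Vangl2 Lp/Lp, against 0.2, 2.3 and 2.3 in wild type. Its ratio to wild type was 25 in beta-catenin cKO (95% interval 10.4 to 78.5), 12.7 in Emg1 cKO (5.15 to 40.3) and 6.01 in Vangl2 Lp/Lp (2.29 to 19.9), for counting error only. As above, the intervals are no test.

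Gm6710 and Zfp970 were among the most abundant members and differed less between genotypes. Gm6710 averaged 6.39 ± 0.945 TPM in beta-catenin cKO, 6.87 ± 0.343 in Emg1 cKO libraries and 6.01 ± 0.546 in Vangl2 Lp/Lp, against 4.23 ± 0.663 in wild type (SD, n = 3 each), and with its partner Gm14391 it was 1.43-fold, 1.54-fold and 1.38-fold the wild-type mean. Zfp970 (ENSMUSG00000078866), the last member by position (177464733 to 177478129), had 10.9, 13.1 and 11.6 TPM in beta-catenin cKO, 12.2, 11.4 and 10.2 in Emg1 cKO libraries and 15, 14.7 and 10.9 in Vangl2 Lp/Lp, against 16.6, 11.5 and 10.4 in wild type. The genotypes overlapped. Zfp970 held 20.3 ± 2.07% of the cluster's reads in wild type but 6.34 ± 0.909%, 5.03 ± 0.485% and 7.99 ± 1.78% in beta-catenin cKO, in Emg1 cKO and in Vangl2 Lp/Lp. Its promoter window is the one it shares letter for letter with Zfp968, as printed above.

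The smallest mean log2 fold changes included those of Gm14418 and Gm14438, besides that of Zfp970. Gm14418 was the only tested member below all wild-type libraries in a mutant, with 2.5, 1.88 and 2.17 TPM in Emg1 cKO, against 4.68, 3.84 and 2.93 in wild type (7.96% of all genes tested lay below in that comparison). It had 4.23, 3.54 and 5.38 TPM in beta-catenin cKO and 4.86, 4.04 and 2.85 in Vangl2 Lp/Lp, both overlapping wild type. No tested member lay below wild type in beta-catenin cKO (beside 7.56% of all genes) or Vangl2 Lp/Lp (beside 6.42%). Gm14438 had 1.98 to 2.21 TPM in beta-catenin cKO, 2.32 to 2.54 in Emg1 cKO libraries and 2.11 to 2.49 in Vangl2 Lp/Lp, against 1.32 to 3.35 in wild type, and 97.7% of its windows also occur in genes outside the cluster. Gm14414 was among the 8 most abundant members, at 7.66 ± 1.71, 9.17 ± 3.48 and 7.33 ± 2.72 TPM in the 3 mutants, against 5.16 ± 2.22 in wild type. All of its windows occur in Gm14438 and 97.5% also occur in genes outside the cluster, so its reads may come from those genes.

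The other 12 untested members had between 10.4 reads (Gm14415) and 120 reads (Gm14416) over all libraries. Summed per genotype, Gm14411 had 8.4 reads in beta-catenin cKO, 16.7 in Emg1 cKO libraries and 14.2 in Vangl2 Lp/Lp, against 0.5 in wild type, and Gm14401 had 8.7, 7.8 and 13.7 reads, against 26.1 in wild type. The first member by position, Gm14444, had 2.1, 2.5 and 3.7 reads, against 2.6 in wild type. At the read minimum, Gm14415 with 10.4 reads stood just inside and Gm6182 with 3.9 reads just outside.

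**Figure D4:**
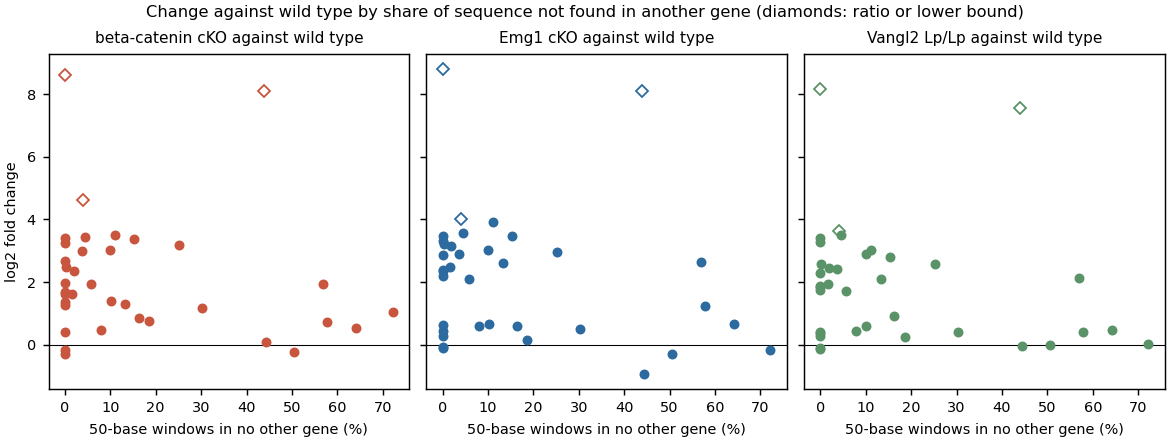
Log2 fold change against wild type (y axis) of the 36 tested members by the percentage of their 50-base windows found in no other gene (x axis), 1 panel per mutant; diamonds are the 3 members given as a ratio or a lower bound. Both high and low folds occur among members with few windows of their own, and of the members with over 50% Gm4631 has the highest fold in each panel.

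Members with few windows of their own and members with many were compared by description. Among the 20 tested members with under 10% of windows of their own, 16 lay above wild type in all 3 mutants, with median log2 fold changes of 1.95, 2.45 and 1.92. Of the 11 with 10% to 50%, 9 did, with medians of 1.41, 2.6 and 2.1. Of the 5 with over 50%, 2 did (Gm4631 and Gm14391), with medians of 0.73, 0.66 and 0.42. The summed reads of the 8 members with over 50% were 1.33-fold, 1.44-fold and 1.36-fold the wild-type mean in beta-catenin cKO, in Emg1 cKO and in Vangl2 Lp/Lp. They came to 20.7 ± 2.78, 22.4 ± 0.842 and 21.1 ± 1.27 CPM, against 15.5 ± 2.30 in wild type (SD, n = 3 each). Zfp970, Gm14391, Gm4631 and the untested Gm14443 and Gm14401 are among these 8, and their folds differ. Zfp970, whose genotypes overlapped, held 20.3% of the reads of the whole cluster in wild type and weighs on the sum. Gm14443 was 25-fold, 12.7-fold and 6.01-fold the wild-type level on few reads, while Gm14401 had fewer reads in each mutant than in wild type. The part that division of reads among copies has in the folds was not tested.

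The 3 contrasts between mutants were not used to pick the region and were tested with edgeR. Copies of a family share sequence, and their reads were divided among them by the counting. Members of a family are therefore not independent, and counts of members here and below are not counts of separate signals. Between beta-catenin cKO and Emg1 cKO 5 of 36 members were called (adjusted p under 0.05 over all genes), beside 3.26% of all genes: 2 were higher (beside 1.37%) and 3 lower (beside 1.89%) in beta-catenin cKO. Gm14410 was lower in beta-catenin cKO (log2 fold change -1.31, SE 0.18, adjusted p 0.00097), and so were Gm14434 (-0.93, SE 0.20, adjusted p 0.02) and Gm2026 (-0.87, SE 0.19, adjusted p 0.018), all of the Gm4631 family. Gm2026 had 3.60, 5.36 and 3.32 TPM in beta-catenin cKO, against 7.51, 7.04 and 8.12 in Emg1 cKO. Gm14288 was higher in beta-catenin cKO, at 2.41, 3.20 and 2.67 TPM against 1.60, 1.20 and 1.43 in Emg1 cKO (0.98, SE 0.25, adjusted p 0.042). Gm14418 was also higher there (1.01, SE 0.24, adjusted p 0.03).

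In 8 of the 9 genes of the Gm4631 family all beta-catenin cKO libraries lay below all Emg1 cKO libraries, and 1 other member, Gm14438, did the same, which makes 9 of 36 members, beside 13.3% of all genes. As copies, the 8 genes are not independent of each other. In 6 of 36 members the beta-catenin cKO libraries lay above, beside 10.3%. The number of calls depended on single libraries of the groups compared and, for 1 library, on a genotype outside the comparison. It was 1 without beta-catenin cKO replicate 1, Emg1 cKO replicate 1 or Emg1 cKO replicate 2, and 2 without beta-catenin cKO replicate 3 or Emg1 cKO replicate 3. It was 10 without beta-catenin cKO replicate 2, the library with the highest value of its group in 28 of 36 members, and 9 without Vangl2 Lp/Lp replicate 1. DESeq2 called 10 and limma on log2(TPM + 1) called 3. The shares of all genes that these tools called were not counted, here and below. Gm14410 was called by DESeq2, by limma and without any single library of either genotype compared.

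Between beta-catenin cKO and Vangl2 Lp/Lp 4 of 36 members were called, beside 3.87% of all genes: 3 were higher (beside 1.62%) and 1 lower (beside 2.25%) in beta-catenin cKO. Gm14288 (log2 fold change 1.0, SE 0.25, adjusted p 0.034), Gm14440 (0.96, SE 0.24, adjusted p 0.037) and Gm14399 (0.76, SE 0.18, adjusted p 0.028) were higher in beta-catenin cKO. Gm14440 had 2.30, 3.04 and 2.47 TPM in beta-catenin cKO, against 1.23, 1.26 and 1.41 in Vangl2 Lp/Lp. Gm14410 was lower (-0.81, SE 0.18, adjusted p 0.021). All beta-catenin cKO libraries lay above all Vangl2 Lp/Lp libraries in 5 of 36 members, beside 14% of all genes, and below them in 1, Gm14410, beside 8.11%. No call was left without beta-catenin cKO replicate 1, Vangl2 Lp/Lp replicate 2 or Vangl2 Lp/Lp replicate 3, 1 was left without beta-catenin cKO replicate 2, beta-catenin cKO replicate 3 or Vangl2 Lp/Lp replicate 1, and limma called 1.

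Between Emg1 cKO and Vangl2 Lp/Lp edgeR called 0 of 36 members, beside 2.83% of all genes (1.32% higher and 1.51% lower in Emg1 cKO). At an unadjusted p under 0.05 it had 13 members, 12 higher and 1 lower in Emg1 cKO, beside 16.1% of all genes. DESeq2 called 4 and limma 0. In 17 of 36 members all Emg1 cKO libraries lay above all Vangl2 Lp/Lp libraries, beside 14.5% of all genes. Among the 17 are all 9 of the Gm4631 family, which as copies are not independent of each other. In 1 member, Gm14418, the Emg1 cKO libraries lay below, beside 7.87%. The nearest to the threshold were Gm14305, with a log2 fold change of 0.88 (SE 0.23, adjusted p 0.051), and Gm14418, with -0.89 (SE 0.24, adjusted p 0.061). The count was 2 without wild type replicate 3 and 1 without beta-catenin cKO replicate 2, beta-catenin cKO replicate 3 or Vangl2 Lp/Lp replicate 3.

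**Figure D5:**
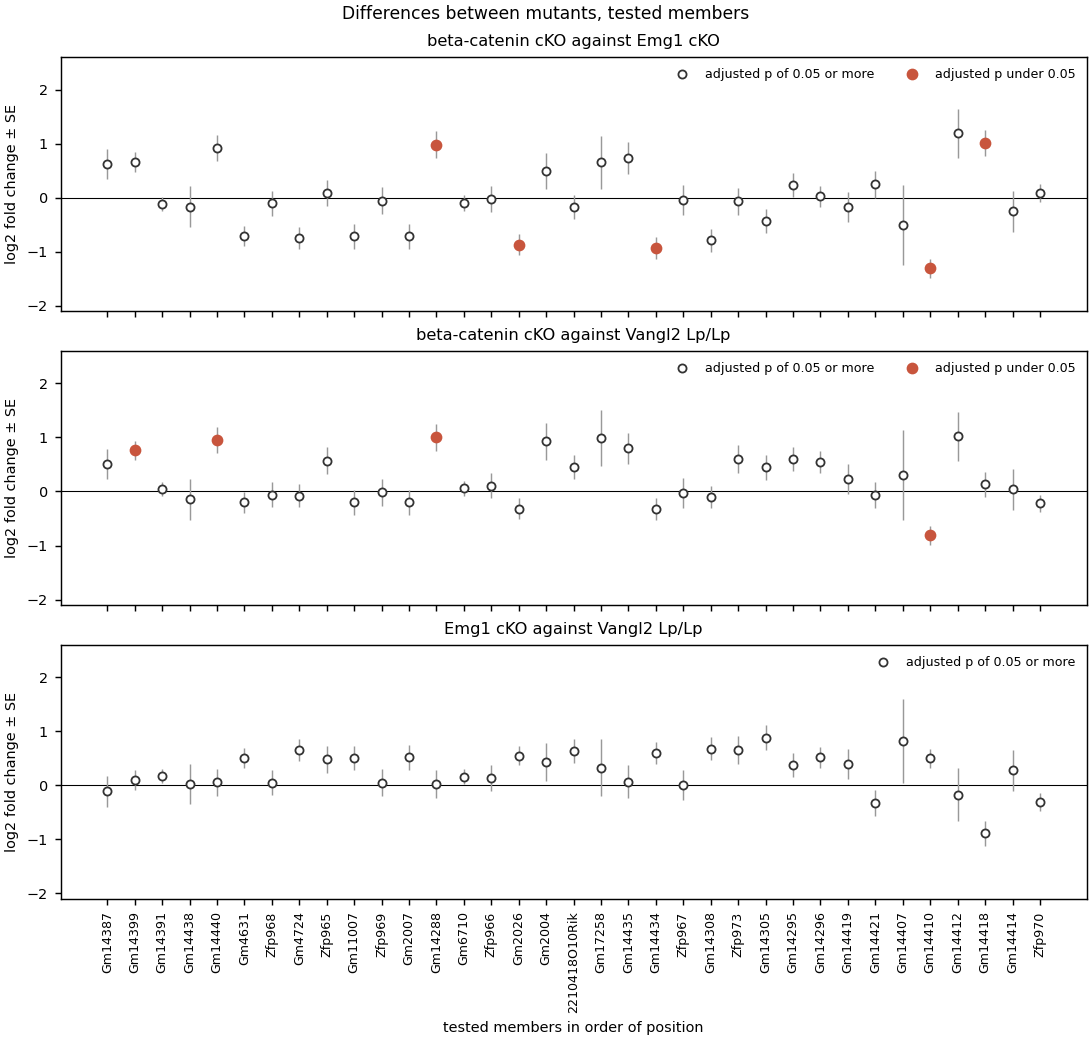
Log2 fold change with its SE (y axis) for each pair of mutants, for tested members in order of position (x axis); filled points have an adjusted p under 0.05 (edgeR). Gm14410 is the lowest point in both contrasts of beta-catenin cKO (-1.31 and -0.81), and no point is filled between Emg1 cKO and Vangl2 Lp/Lp.

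The genes on either side, which the rule did not choose, were tested against wild type. Within 2500000 bases of the region, and wholly outside it, 37 genes were tested. In beta-catenin cKO 4 were higher and 2 lower, beside 14.5% of all genes called in either direction. In Emg1 cKO 6 were higher and 4 lower, beside 21.7%. In Vangl2 Lp/Lp edgeR called 0, beside 8.80%, with 9 at an unadjusted p under 0.05, beside 24.9% of all genes. DESeq2 and limma called 1 each there, and library totals in place of TMM gave 2. The count was 1 without wild type replicate 1, beta-catenin cKO replicate 3, Emg1 cKO replicate 1 or Emg1 cKO replicate 3. Median log2 fold changes of the 37 genes were 0.08, 0.03 and -0.00.

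The nearest tested genes below the region are Edn3, an endothelin ligand, Prelid3b, Atp5e, a subunit of ATP synthase, Tubb1 and Ctsz, a lysosomal protease. Edn3 was higher in beta-catenin cKO (0.49, adjusted p 0.0052) and Emg1 cKO (0.30, adjusted p 0.047), with 11.7, 12.5 and 10.9 TPM in beta-catenin cKO and 10.8, 9.28 and 10.6 in Emg1 cKO, against 8.45, 7.61 and 7.05 in wild type. The other 4 were not called in any mutant. The nearest row below, the lincRNA Gm14616, had 4.6 reads.

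Above the region the zinc finger genes go on. Gm14403 (177498215 to 177509763) straddles the upper edge, so it is no member and is not counted among the 37, although its promoter holds the 54-base run. It had 6.61, 6.78 and 6.23 TPM in beta-catenin cKO, 16.1, 11.4 and 11.3 in Emg1 cKO libraries and 21.4, 15.5 and 13.2 in Vangl2 Lp/Lp, against 9.56, 8.66 and 7.91 in wild type. It was higher in Vangl2 Lp/Lp (0.86, adjusted p 0.0092) and not called in Emg1 cKO (0.45, adjusted p 0.091) or beta-catenin cKO (-0.52, adjusted p 0.078), and lower in beta-catenin cKO than in Emg1 cKO (-0.98, adjusted p 0.0098). Gm14322 was lower in Emg1 cKO, at 4.99, 3.23 and 3.72 TPM against 7.15, 8.19 and 6.23 in wild type (-0.97, adjusted p 0.011), and not called in the other mutants. Gm14325, Gm14323 and Gm14327 were not called in any mutant, and Gm14325 had 21.1 to 28.6 TPM in the mutants against 17.3 to 29.2 in wild type.

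Zinc finger genes outside the region, taken by symbol, were called in both directions. The list holds protein coding genes named Zfp, Zkscan, Zscan, Zik, Zim, Znf or Rex2, with no selection for a KRAB domain. It leaves out zinc finger genes with Gm or Rik symbols, which most members carry, and includes the flanking Zfp971 and Zfp931. Of 358 tested, 19 were higher and 12 lower in beta-catenin cKO (beside 7.48% and 6.99% of all genes), 27 were higher and 20 lower in Emg1 cKO (beside 11.3% and 10.4%), and 9 were higher and 6 lower in Vangl2 Lp/Lp (beside 5.45% and 3.34%). Their median log2 fold changes were 0.01, 0.00 and 0.00. The split by direction depends on the scaling: with library totals it was 25 higher and 6 lower in beta-catenin cKO, 39 higher and 8 lower in Emg1 cKO, and 14 higher and 3 lower in Vangl2 Lp/Lp. With limma on TPM it was 28 and 3, 47 and 4, and 9 and 2 in the same order. Among those with the largest called changes, Zfp345, also on chromosome 2 but at 150470991, was lower in all 3 mutants, at 0.225, 0.864 and 0.447 TPM in beta-catenin cKO, 0.411, 0.221 and 0.487 in Emg1 cKO libraries and 0.632, 0.557 and 0.401 in Vangl2 Lp/Lp, against 1.39, 1.32 and 1.34 in wild type. Its log2 fold changes were -1.51 (adjusted p 0.018), -1.93 (0.0032) and -1.44 (0.031). Zfp536, a gene of developing neurons, was higher in all 3 (0.74, 1.25 and 0.80, adjusted p 0.03, 0.00076 and 0.03), and so was Zfp811 (0.39, 0.53 and 0.48, adjusted p 0.029, 0.0034 and 0.015). Zfp990, of a zinc finger cluster on chromosome 4, was lower in beta-catenin cKO (-1.53, adjusted p 0.00037) and Emg1 cKO (-0.70, adjusted p 0.024). In beta-catenin cKO 14 to 20 calls in place of 31 were made without wild type replicate 3 or any single beta-catenin cKO replicate. In Emg1 cKO 20 and 22 in place of 47 were made without its replicates 2 and 3. In Vangl2 Lp/Lp 3 to 9 in place of 15 were made without any single Vangl2 Lp/Lp replicate, wild type replicate 1 or 3, or Emg1 cKO replicate 2.

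The repressor machinery through which KRAB zinc finger proteins are known to act was tested as a list of 35 genes. Trim28 was at 613, 643 and 707 TPM in beta-catenin cKO, 629, 635 and 711 in Emg1 cKO libraries and 633, 704 and 748 in Vangl2 Lp/Lp, against 651, 636 and 633 in wild type, and was not called (-0.08, -0.08 and 0.03). Setdb1 was not called either (0.03, -0.03 and -0.01). In the list 2 genes were higher and 5 lower in beta-catenin cKO, 3 higher and 6 lower in Emg1 cKO, and 1 higher and 2 lower in Vangl2 Lp/Lp. Over all genes 14.5%, 21.7% and 8.80% were called in these comparisons. Chd3, a chromatin remodeller of the NuRD complex that is also abundant in neurons, was higher in all 3, at 151 to 166 TPM in beta-catenin cKO, 175 to 187 in Emg1 cKO libraries and 129 to 145 in Vangl2 Lp/Lp, against 93.7 to 119 in wild type (0.43, 0.60 and 0.25, adjusted p 0.00064, 3e-05 and 0.028). Mphosph8, a subunit of the HUSH silencing complex, was lower in all 3 (-0.25, -0.21 and -0.18, adjusted p 0.0056, 0.0086 and 0.041). Suv39h2, a histone H3 lysine methyltransferase, was lower in beta-catenin cKO (-0.27, adjusted p 0.0092) and Emg1 cKO (-0.28, adjusted p 0.0049), and Uhrf1, which guides maintenance DNA methylation, likewise (-0.19, adjusted p 0.019, and -0.22, adjusted p 0.0062). Atf7ip was higher in beta-catenin cKO (0.21, adjusted p 0.026) and Emg1 cKO (0.2, adjusted p 0.026). Dnmt3a was higher in Emg1 cKO (0.24, adjusted p 0.0038). The called genes of the list that are not named here were lower. On TPM, which carry the upward shift given above, limma called 4 higher and 0 lower in beta-catenin cKO, 7 higher and 0 lower in Emg1 cKO, and 2 higher and 0 lower in Vangl2 Lp/Lp, so the split by direction depends on the scaling. The calls in Vangl2 Lp/Lp were 0 without Vangl2 Lp/Lp replicate 1 or wild type replicate 3, and 1 without any single beta-catenin cKO replicate, Vangl2 Lp/Lp replicate 3 or Emg1 cKO replicate 2. Those in beta-catenin cKO were 3 without its replicate 1 or 2 and 4 without its replicate 3.

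Other measures differed between mutants and wild type alongside the cluster, and their part in its higher values was not tested. Neuron markers (Tubb3, Dcx, Elavl3 and Stmn2) summed to 294 to 319 CPM in beta-catenin cKO, 452 to 495 in Emg1 cKO libraries and 283 to 542 in Vangl2 Lp/Lp, against 139 to 199 in wild type, with 3, 4 and 4 of the 4 higher. Neural progenitor markers (Sox1, Sox2, Pax6 and Nes) were 480 to 532, 523 to 568 and 493 to 554 in the mutants, against 384 to 405 in wild type, with 2, 3 and 4 of the 4 higher. Of 10 caudal markers 4 were lower in beta-catenin cKO, 3 in Emg1 cKO and 0 in Vangl2 Lp/Lp, with sums of 329 to 367, 403 to 412 and 258 to 440, against 397 to 425 in wild type. Surface ectoderm markers were 158 to 167, 105 to 142 and 124 to 159 in the mutants, against 190 to 219 in wild type, with 2, 5 and 3 of 5 lower. Erythroid markers were 4140 to 4270, 3250 to 4410 and 3990 to 6300, against 5930 to 7690 in wild type, with 5, 5 and 2 of 5 lower. Of 4 tested markers of germ and pluripotent cells, where many KRAB zinc finger genes are active, 3 were higher in beta-catenin cKO, 0 in Emg1 cKO libraries and 2 in Vangl2 Lp/Lp, with sums of 51.6 to 54.8, 46.5 to 49.5 and 45.8 to 55.0 CPM, against 43.3 to 51.8 in wild type. None of these lists was at 0 in any group.

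Transcripts known to differ between inbred mouse strains gave a mixed picture. Glo1, whose copy number varies among strains, had 220, 236 and 231 TPM in beta-catenin cKO, 398, 341 and 310 in Emg1 cKO libraries and 347, 301 and 172 in Vangl2 Lp/Lp, against 405, 400 and 416 in wild type. It was lower in beta-catenin cKO (-0.94, adjusted p 0.0024) and Vangl2 Lp/Lp (-0.66, adjusted p 0.028) and not called in Emg1 cKO (-0.34, adjusted p 0.17). Alad, another gene with strain-dependent copy number, was lower in Emg1 cKO (-0.48, adjusted p 0.0018) and not called in the other mutants. Nnt, Entpd4 and Wdfy1 were not called against wild type in any mutant, and Nnt had 33.1 to 40.2 TPM in the mutants, against 29.7 to 35.6 in wild type. Between mutants, Wdfy1 was called lower in beta-catenin cKO than in Emg1 cKO (-0.4) and than in Vangl2 Lp/Lp (-0.4, adjusted p 0.04). The genetic background of the embryos cannot be told apart from genotype in these libraries.

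The 4 genes outside the region whose log2 TPM over the 12 libraries was most like that of the summed members were Spock2, A330074H02Rik, Rgmb and Ephb1, with Pearson correlations of 0.967, 0.962, 0.960 and 0.959. The 12 points share the split into mutants and wild type. Spock2, a matrix proteoglycan of the nervous system, had 38.9, 40.2 and 37.7 TPM in beta-catenin cKO, 47.3, 49.4 and 45.3 in Emg1 cKO libraries and 34.9, 39.3 and 39.9 in Vangl2 Lp/Lp, against 25, 26.2 and 24.4 in wild type. The summed TPM of the tested members was 143, 179 and 127 in beta-catenin cKO, 180, 173 and 183 in Emg1 cKO libraries and 126, 152 and 139 in Vangl2 Lp/Lp, against 63.3, 55.7 and 51.6 in wild type.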

How the data were processed

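RNA was sequenced from 12 libraries, and the members, lists and tests were chosen with earlier results of these data known. Per the labels, total RNA was extracted with a miRNeasy kit and made into libraries with a TruSeq Stranded mRNA kit. Per the submitters' processing notes, Trimmomatic 0.39, STAR 2.7.10b and mm10 were used. Which tool counted the reads, with which strand setting and annotation release, is something the sources used here do not give. The authors deposited 2 values per gene and library, the log2 of TPM with values of 1 TPM or less set to 0, and the expected count of reads, with fractions and without normalisation. TPM under 1 were rebuilt from the expected counts, since 1 gene factor and 1 library factor link both values (largest residual 1.2e-06, log2).

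Expected counts were rounded and fitted with edgeR 4.0.16 (R 4.3.3; all 12 libraries fitted together, 1 mean per genotype, TMM scaling, two-sided quasi-likelihood F test, Benjamini-Hochberg adjustment over the 17848 genes that reach 1 TPM in 3 or more libraries; common dispersion 0.00953, prior degrees of freedom 7.19). A call is an adjusted p under 0.05. Each adjusted p printed comes from edgeR, and SE is the log2 fold change divided by the square root of F. Alternatives were DESeq2 1.42.0, limma 3.58.1 on log2(TPM + 1), library totals in place of TMM, no TPM filter, a replicate block and leaving out each library. Ratios for members with few wild-type reads use summed reads over summed library sizes, with exact binomial 95% intervals. The fitting was tested on simulated data. Sequence windows were read from GENCODE vM21 transcripts and promoters from RefSeq GRCm38.p6, with Python 3.11.15.

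Members were named if among the 8 most abundant, the 8 largest or 4 smallest mean log2 fold changes over the 3 mutants, or called between mutants; other members named in the text were chosen after their values were seen. Outside the cluster the rule took the 5 nearest tested genes at each edge, the largest called changes among other zinc finger genes, up to 8 called cofactors, the targeted genes, 6 strain-variable genes and the 4 most similar profiles. The strain-variable gene H2-Ea was not among the genes tested. Processed pseudogenes that lie inside another gene on the opposite strand, Gm14439 in Gm14393 and Gm14407 in Gm14401, cannot be told apart from it without the strand setting. For 1 of the 49 members, counted in the totals, no values of its own are reported here.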

Additional observations from a re-analysis of the deposited data

How the results depend on the processing

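Of 1430 recomputed values for 130 results, 1136 kept their direction and their side of the threshold or moved little, 236 kept their direction but lost the call, 58 moved and 0 reversed. Members called between beta-catenin cKO and Emg1 cKO numbered 5, 10 by DESeq2 and 3 by limma, and 1 to 10 when 1 library was left out. Between beta-catenin cKO and Vangl2 Lp/Lp they numbered 4, 1 by limma, and 0 to 4 with 1 library left out. Between Emg1 cKO and Vangl2 Lp/Lp they numbered 0, 1 with library totals, 4 by DESeq2, and 0 to 2 with 1 left out. Same-numbered replicates did not deviate together (18 correlations of -0.12 to 0.10, 0 of them over 0.1), so the numbers were not taken as pairs. The replicate block gave 6, 2 and 0 calls in these 3 contrasts, and 1 cofactor in Vangl2 Lp/Lp in place of 3. Flanking genes called in Vangl2 Lp/Lp numbered 2 with library totals and 1 by DESeq2 or limma; other zinc finger genes in Vangl2 Lp/Lp numbered 24 by DESeq2 in place of 15, and cofactors in beta-catenin cKO 4 by limma in place of 7. With 1 library left out, flanking genes called were 5 to 8, 7 to 10 and 0 to 1 in beta-catenin cKO, in Emg1 cKO and in Vangl2 Lp/Lp, other zinc finger genes 14 to 37, 20 to 47 and 3 to 16, and cofactors 3 to 8, 6 to 12 and 0 to 3. Members above all wild-type libraries numbered 29 to 32, 27 to 31 and 27 to 29 with 1 left out. This count cannot fall when a library is left out, so these ranges are no check of it. The cause of these shifts was not tested. The 13 members under the TPM filter were not tested.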
